A study of Mus musculus with 6 samples.

Results

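The genes described here are 38 genes of glucose use: glucose transporters, the enzymes of glycolysis, the exits from pyruvate, the pentose phosphate pathway, glycogen metabolism and Hif1a, the oxygen-sensitive regulator of many of them. They were taken by gene symbol, not by a measured value, but the list was chosen with earlier results of these data known. All 38 were found among the 43432 genes measured. RNA was sequenced in bulk from CD11b+ spleen cells of 6 Rag1-KO mice on the C57BL/6J background, taken on day 8 after the transfer of B and T cells. CD11b is an integrin chain of neutrophils, monocytes, many macrophages and some dendritic cells, and Rag1-KO mice form no mature lymphocytes of their own. All 6 mice were given 2D2 CD4+ T cells, which carry a transgenic receptor for myelin oligodendrocyte glycoprotein (MOG), with B cells from the iGB culture that had been loaded with MOG protein. In WT iGB6 (3 mice) the B cells were wild type and had been transduced, after 48 h of culture, with a pMSCV-IRES2-eGFP retrovirus holding the Il6 gene. In IgHMOG iGBGFP (3 mice) they were IgHMOG B cells, which carry a MOG-specific heavy chain, with the empty pMSCV vector. B cell genotype and vector differed together between the groups and cannot be told apart. Replicate 1 was female and replicates 2 and 3 were male in each group, and each library came from its own mouse. The sources used here give no age for the mice.

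Glycolysis splits glucose into pyruvate. Its preparatory steps spend ATP to trap glucose and cut it into triose phosphates, and its payoff steps regain ATP and end in pyruvate, which becomes lactate or enters the mitochondria. The pentose phosphate pathway branches off at glucose 6-phosphate, where its oxidative arm makes NADPH and its non-oxidative arm exchanges sugars with glycolysis, while glycogen stores glucose through glucose 1-phosphate. Neutrophils are known for a glycolytic metabolism, for the use of NADPH in the oxidative burst and for glycogen stores. In bulk RNA, fewer cells of a type and less RNA per cell cannot be told apart.

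The depth was 5196339 to 6611212 reads per library in IgHMOG iGBGFP and 5955142 to 7564254 in WT iGB6, with 14816 to 17013 genes detected. Itgam, which encodes CD11b, was at 7865 normalized counts on average in IgHMOG iGBGFP against 10809 in WT iGB6, so the sorted marker was abundant in both groups. Several lists of markers of cell type and maturation moved with the groups, by the limma test described below, and others did not. That test called 2.75% of all genes tested higher in WT iGB6 and 3.37% lower. Of 8 measured markers of primary granules and neutrophil precursors, 8 rose in WT iGB6, with summed levels of 5518 to 13135 normalized counts in IgHMOG iGBGFP and 22341 to 36765 in WT iGB6. Of 10 markers of cell division 8 rose, with sums of 2515 to 3763 against 4676 to 9086. Of 6 tested dendritic cell markers 5 fell, as did 5 of 7 basophil markers and 5 of 8 monocyte markers, and none of the genes of these lists was at 0 in any library. Of 8 mature neutrophil markers 2, Cxcr2 and Clec4d, fell, and 4 of the 8 were positive. None of 5 tested erythroid markers passed, although all 5 were positive at an unadjusted p under 0.05, with a median log2 fold change of 0.97. Of 6 red pulp macrophage markers 1 rose, as did 1 of 4 NK cell markers. None of 2 tested T cell markers and none of 2 tested B cell markers passed. Of 2 tested platelet markers 1 rose and 1 fell. The 6 secondary granule markers, which belong to maturing neutrophils, were all positive with a median of 0.95. Limma called 0 of them and 5 had an unadjusted p under 0.05, while edgeR called 1 higher and DESeq2 5. Their sum took 20.1% of the library in IgHMOG iGBGFP replicate 1 against 11.6% and 9.30% in replicates 2 and 3, and 24.3%, 17.4% and 24.2% in WT iGB6. The part of these cell markers in the differences below was not tested.

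The promoters of the 3 members that passed the test described below are printed first, because members of this pathway are textbook targets of the hypoxia-inducible factors, whose response element has the core ACGTG or GCGTG. Each window lies upstream of the gene's RefSeq start on the + strand of GRCm38.p6, is written 5′ to 3′, and has each core on either strand in capitals. Bases that the GENCODE M21 annotation gives as untranslated region were left out, which were 37 of the 250 bases for Pgm1, 121 for Gys1 and none for Pgam1. Pgm1 spans chr4:99929201-99929413, Gys1 chr7:45434710-45434838 and Pgam1 chr19:41911621-41911870.
Pgm1: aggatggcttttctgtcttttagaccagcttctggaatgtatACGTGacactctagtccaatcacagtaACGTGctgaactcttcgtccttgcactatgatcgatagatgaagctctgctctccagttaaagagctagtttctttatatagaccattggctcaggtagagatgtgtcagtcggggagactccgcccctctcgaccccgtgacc
Gys1: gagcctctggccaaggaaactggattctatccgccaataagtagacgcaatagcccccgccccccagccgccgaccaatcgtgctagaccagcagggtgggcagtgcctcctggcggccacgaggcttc
Pgam1: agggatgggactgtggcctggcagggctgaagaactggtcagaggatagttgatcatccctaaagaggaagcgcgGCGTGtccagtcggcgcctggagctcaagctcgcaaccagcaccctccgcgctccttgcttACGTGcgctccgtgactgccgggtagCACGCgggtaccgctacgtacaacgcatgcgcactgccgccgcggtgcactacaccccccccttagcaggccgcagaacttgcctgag

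Pgm1 had 2 cores, which began 208 and 181 bases before its start, and Pgam1 had 3, at 175, 114 and 88 bases. Gys1 had 0 in its whole window of 250 bases. A core is a short match of letters and shows neither binding nor a cause. Over the list, 37 of the 38 members had a RefSeq promoter (Slc2a3 had no entry). Of these, 32, or 86.5%, held either core in the 250 bases before a start, against 41.5% of 27025 genes. Those were all genes with a RefSeq promoter, whether expressed here or not, and a gene counted if any of its windows held a core. By window, the shares were 78.4% for the members and 38.6% for all. ACGTG alone was found for 43.2% of the members and 18.5% of all genes, and GCGTG for 62.2% and 30.9%. The E-box CACGTG, which contains ACGTG, was found for 13.5% and 6.86%. The members' windows were richer in G and C, with a median of 60.4% over 51 windows against 52.4% over all 32851.

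The comparison asks how CD11b+ cells of mice given Il6-transduced wild-type B cells differed from those of mice whose IgHMOG B cells held the empty vector. Most members of the list had higher values in WT iGB6, by a modest amount, and the sign was not the same over the whole pathway. Pgam1, Pgm1 and Gys1 rose, and no member fell. The payoff steps, the hexokinases and the glycogen enzymes had positive values throughout. By contrast, 8 tested members (Slc2a1, Pfkm, Pfkfb3, Pfkfb4, Aldoc, Slc16a3, Taldo1 and Hif1a) had negative ones, none of which passed the test. Of the 38 members, 34 had a mean of at least 10 normalized counts and were tested with limma, with group and sex as terms and Benjamini-Hochberg adjustment over all 9923 genes tested. Slc16a1, Pdk1, Pgls and Rpia were below that level in both groups.

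Limma called 3 of the 34 members higher, or 8.82%, against a background of 2.75% of all genes tested, and 0 lower against 3.37%. Without adjustment, 13 members had a positive difference at p under 0.05 and 0 a negative one. By sign alone 26 of 34 differences were positive, or 76.5%, against 51.6% of all genes. Their median log2 fold change (WT iGB6 relative to IgHMOG iGBGFP) was 0.40, with a range of -0.54 to 0.89, and the median of all genes was 0.02. The 3 libraries of WT iGB6 lay wholly above those of IgHMOG iGBGFP for 9 members, or 26.5%, against 12.2% of all genes, and wholly below for 2, or 5.88%, against 11.4%.

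**Figure D1:**
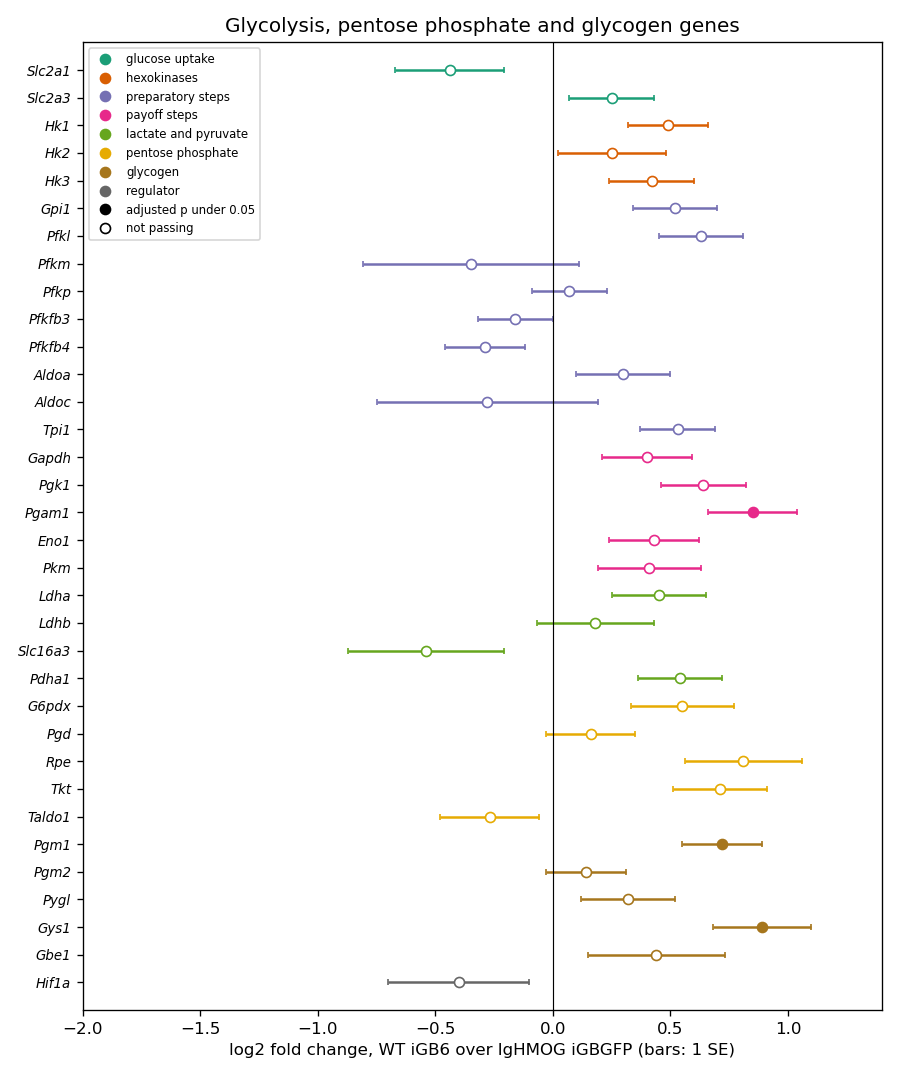
Log2 fold change, WT iGB6 relative to IgHMOG iGBGFP, on the log2(normalized count + 1) scale for the 34 tested members, ordered and coloured by branch, with bars of 1 standard error from limma. Filled points passed an adjusted p of 0.05 (Pgam1, Pgm1 and Gys1), and 26 of 34 points lie to the right of 0.

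The count tests on recovered reads gave a positive difference for the same number of members, 26 of 34. EdgeR called the same 3 members, against 2.56% of all genes called higher. DESeq2 called 6 members, or 17.6%, against 4.25%, adding Pgk1, Rpe and Tkt. The authors' deposited table held an adjusted p-value for 36 members and called the same 6, or 16.7%, against 3.89% of its 10537 genes. None of the 3 called a member lower.

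The 3 calls did not hold in every fit. With the sex term left out, limma called 0 of the members (and 10 genes in all), and it called 0 without IgHMOG iGBGFP replicate 2 or without IgHMOG iGBGFP replicate 3. It called 1, Gys1, in the 4 males alone and without replicate 1 of either group, and 9 where libraries were weighted by their quality. A single female left in the fit is taken up by the sex term. The fits without replicate 1 of either group therefore rest on the same 4 males and gave the same estimates as the males alone. They are not separate evidence where alternative fits are counted below. Scaled to total counts, a setting added after the data were seen, 22 of 34 differences were positive and 0 members passed. That scaling moved the median of all genes from 0.02 to -0.19 and the members' median from 0.40 to 0.20. A change of scaling shifts every gene's estimate by nearly the same amount. The distance between the 2 medians, 0.38 against 0.39 with the deposited scaling, could therefore hardly change and is no check of the calls. It also changed the split of all calls from 273 higher and 334 lower to 82 and 352.

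IgHMOG iGBGFP replicate 1 was the highest library of its group for 24 of the 34 tested members, and replicate 3 was the lowest for 18. In WT iGB6, replicate 1 was the highest for 19 and replicate 2 the lowest for 20. The libraries of a group therefore differed together over the list. In a fit with the interaction of sex and group, limma called 0 genes in all, and at an unadjusted p under 0.05 there were 148 genes and 0 members. With 1 female per group, this test is weak.

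**Figure D2:**
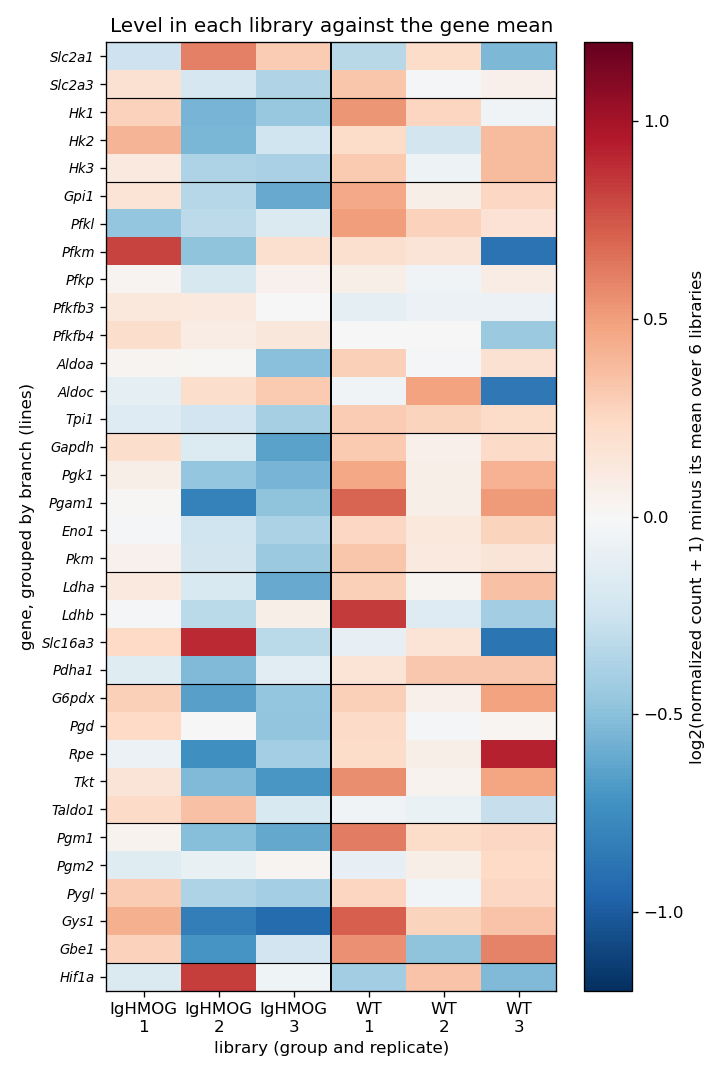
Log2(normalized count + 1) of each tested member in each library, less the gene's mean over the 6 libraries, with genes grouped by branch between lines and the groups on either side of the vertical line. Most rows are bluer on the left and redder on the right, and IgHMOG iGBGFP replicate 1 is redder than replicates 2 and 3 in many rows, being the highest of its group for 24 members.

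Glucose enters myeloid cells through the facilitative transporters GLUT1 (Slc2a1) and GLUT3 (Slc2a3), and here neither gene passed the test. Slc2a3 was far more abundant, at 10948, 8386 and 7466 normalized counts in IgHMOG iGBGFP replicates 1, 2 and 3 and 12130, 9485 and 10027 in WT iGB6 (log2 fold change 0.25, SE 0.18). Slc2a1 was at 288, 523 and 423 in IgHMOG iGBGFP against 272, 399 and 236 in WT iGB6 (-0.44, SE 0.23). The groups overlapped for both genes, whose estimates had opposite signs. Per kb of exon, Slc2a1 made up 9.02 ± 3.37% of the pair's level in IgHMOG iGBGFP against 5.69 ± 2.01% in WT iGB6 (SD over 3 mice per group, exact permutation p = 0.2).

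Hexokinases phosphorylate glucose and so hold it in the cell. The 3 members were positive and none passed. Hk1 was at 990.2, 556 and 598 normalized counts in IgHMOG iGBGFP against 1179, 976 and 793 in WT iGB6 (log2 fold change 0.49, SE 0.17, limma adjusted p = 0.117). Hk3, the most abundant of the 3 per kb of exon, was at 2625, 1867 and 1849 and at 2997, 2317 and 3145 (0.42, SE 0.18). For both, IgHMOG iGBGFP replicate 1 lay within the range of WT iGB6. Hk2 had the smallest difference of the 3, 0.25 (SE 0.23). Hk3 held 82.3 ± 1.91% of its level per kb in IgHMOG iGBGFP against 82.3 ± 2.45% in WT iGB6 (n = 3 per group, exact permutation p = 1).

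The 9 preparatory genes split by sign, with 5 positive, 4 negative, none called and a median log2 fold change of 0.07. Pfkl, the liver-type subunit of phosphofructokinase, the committed step of glycolysis, was at 302, 334 and 369 normalized counts in IgHMOG iGBGFP against 590.5, 504 and 468 in WT iGB6. Every WT iGB6 library lay above every IgHMOG iGBGFP library, but the adjusted p missed the threshold (0.63, SE 0.18, limma adjusted p = 0.0645). Pfkp, the platelet-type subunit, was nearly level, with means of 622 ± 56.6 and 653 ± 32.8 (0.07, SE 0.16), and Pfkm, the muscle-type subunit, was at 20.5 or below in all libraries (-0.35, SE 0.46).

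The share of each phosphofructokinase gene in the family's RNA level does not depend on library scaling. It does not measure the subunits of the enzyme itself. Pfkl held 45.3%, 53.3% and 51.1% of the family's level per kb in IgHMOG iGBGFP against 62.3%, 60.3% and 57.3% in WT iGB6, a difference of 10.1 percentage points with no overlap (49.9 ± 4.14% and 59.9 ± 2.49%, n = 3 per group). The Pfkp share was 46.1 ± 2.27% in IgHMOG iGBGFP against 37.7 ± 3.27% in WT iGB6, also with no overlap. Each had an exact permutation p = 0.1, which is the lowest value possible with 3 libraries per group, and 0.55 after adjustment over the 11 isozyme shares computed, so neither share can be called changed. The shares of 1 family sum to the whole and are not independent. Exons of Pfkp overlap those of Pitrm1 by up to 748 bases, so its count, and with it these shares, is uncertain without strand. Gpi1, Pfkm, Pkm, Pdha1, G6pdx and Pgls also overlap another gene's exons, by up to 255 to 454 bases.

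**Figure D3:**
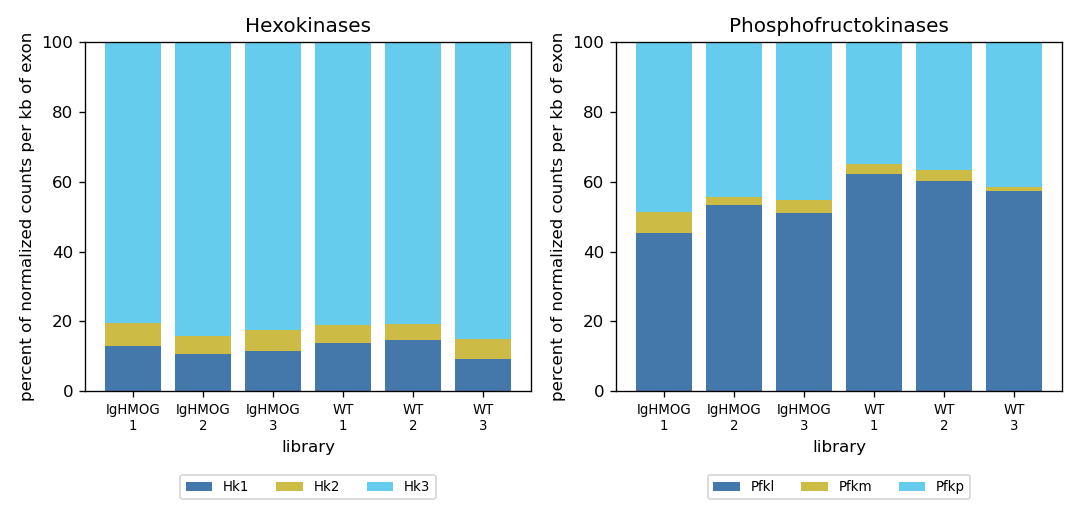
Share of each hexokinase and phosphofructokinase gene in its family's normalized counts per kb of exon, 1 bar per library, as percent of the family. Hk3 takes most of the hexokinase level in each library, and the Pfkl share is 45.3% to 53.3% in IgHMOG iGBGFP and 57.3% to 62.3% in WT iGB6.

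The remaining preparatory genes also went both ways. Tpi1, the triose phosphate isomerase, was at 637, 605 and 538 normalized counts in IgHMOG iGBGFP against 877, 853 and 828 in WT iGB6, without overlap (log2 fold change 0.53, SE 0.16, limma adjusted p = 0.0768). Aldoa, the main aldolase, was the most abundant of the branch per kb, at 8203, 8049 and 5660 and at 9761, 7886 and 9063 (0.30, SE 0.20), and the groups overlapped. Gpi1, glucose phosphate isomerase, had a difference of 0.52 (SE 0.18, limma adjusted p = 0.113). Pfkfb3 and Pfkfb4, which make the allosteric activator of phosphofructokinase, were the 2 tested members whose WT iGB6 libraries all lay below the others. Pfkfb3 was at 475 to 515 against 439 to 449.9 (-0.16, SE 0.16), Pfkfb4 at 1633 to 1775 against 1128 to 1541 (-0.29, SE 0.17), and neither passed the test. Aldoc was at 15.8 or below in all libraries (-0.28, SE 0.47).

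In the payoff steps all 5 genes were positive, their median log2 fold change was 0.43, and Pgam1 was called. That is 20.0% called higher, against 2.75% of all genes tested. For 4 of 5, or 80.0%, the WT iGB6 libraries lay wholly above those of IgHMOG iGBGFP, against 12.2% of all genes. Pgam1, phosphoglycerate mutase (ENSMUSG00000011752, GRCm38 chromosome 19, 41911923 to 41918660), was at 384, 217 and 273 normalized counts in IgHMOG iGBGFP against 617, 399 and 544 in WT iGB6. All WT iGB6 values lay above all IgHMOG iGBGFP values, though WT iGB6 replicate 2 was close to IgHMOG iGBGFP replicate 1. The means were 291 ± 84.6 and 520.1 ± 111 (SD over 3 mice per group; log2 fold change 0.85, SE 0.19, limma adjusted p = 0.036). The difference was 0.68 between the females and 0.93 between the males. It stayed between 0.64 and 0.95 over 20 alternative fits, of which 13 called it. Pgam1 has 2 close copies in the annotation, whose counts came to 0.311% of its own.

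Pgk1, phosphoglycerate kinase and the first ATP-yielding step, was at 856, 592 and 557 normalized counts in IgHMOG iGBGFP against 1130, 859 and 1092 in WT iGB6. The lowest WT iGB6 value was almost that of IgHMOG iGBGFP replicate 1, and the other 2 IgHMOG iGBGFP libraries were well below. The log2 fold change was 0.64 (SE 0.18), with an adjusted p of 0.0594 by limma and 0.0459 by DESeq2. Pkm, pyruvate kinase, the most abundant payoff gene per kb, was at 27353, 22742 and 19407 and at 33196, 28738 and 29467 (0.41, SE 0.22). Eno1, enolase, was at 11078 ± 1421 and 14844 ± 782 (0.43, SE 0.19). For both, the groups did not overlap and the test was not passed. Gapdh, often used as a reference gene, was at 2795 ± 805 and 3603 ± 328 (0.40, SE 0.19), the groups overlapped, and its count is uncertain because 117 annotated close copies, with 3.49% of its level between them, can share its reads.

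Summed over the 5 genes, the payoff steps took 0.648 ± 0.0292% of a library's normalized counts in IgHMOG iGBGFP against 0.751 ± 0.0482% in WT iGB6, without overlap. Pkm and Eno1, neither of which was called, made up most of that sum, and Pgam1 only a small part. The sums of every other branch overlapped. Pentose phosphate genes took 0.495 ± 0.0459% in IgHMOG iGBGFP and 0.490 ± 0.0192% in WT iGB6. In the same order, lactate and pyruvate genes took 0.139% and 0.138%, and glucose transporters 0.159% and 0.161%. Hexokinases (0.0522% and 0.0606%), preparatory steps (0.255% and 0.271%) and glycogen genes (0.140% and 0.154%) had higher means in WT iGB6, and Hif1a a lower one. All 38 members together took 1.89 ± 0.127% and 2.03 ± 0.114%, and these overlapped.

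**Figure D4:**
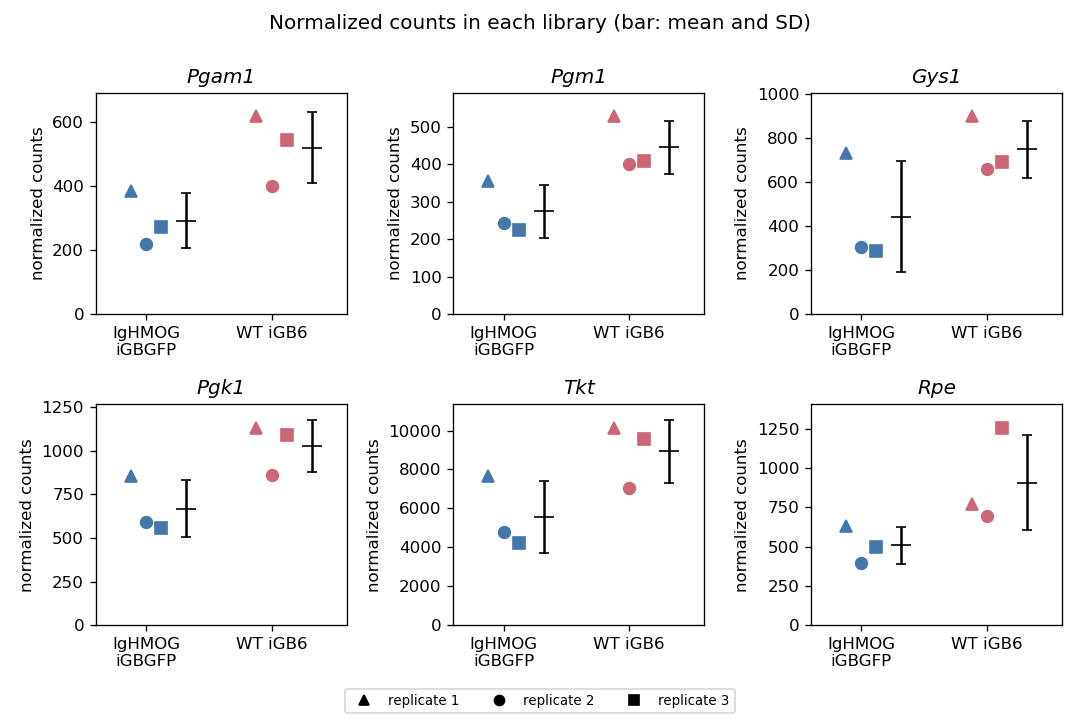
Normalized counts of the 6 members that limma or DESeq2 called, 1 point per library, with replicate 1 (female) as triangles and replicates 2 and 3 (male) as circles and squares, and bars for the mean and SD of each group of 3. WT iGB6 lies above IgHMOG iGBGFP without overlap for Pgam1, Pgm1, Pgk1 and Rpe, while for Gys1 and Tkt IgHMOG iGBGFP replicate 1 lies above the lowest WT iGB6 library.

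At the exits from pyruvate no member passed, and the enzymes and the lactate exporter differed in sign. Pdha1, a subunit of pyruvate dehydrogenase, which feeds pyruvate into the citric acid cycle, was at 590.2, 454 and 594 normalized counts in IgHMOG iGBGFP against 734, 820.1 and 821 in WT iGB6 (log2 fold change 0.54, SE 0.18, limma adjusted p = 0.0972), without overlap. Ldha, the lactate dehydrogenase subunit that dominates in glycolytic cells, was at 5960, 4813 and 3596 and at 6700, 5608 and 6984 (0.45, SE 0.20), where IgHMOG iGBGFP replicate 1 exceeded WT iGB6 replicate 2. Slc16a3, the lactate exporter MCT4, had the most negative estimate of the tested members, with 2385, 3758 and 1611 against 1886, 2259 and 1103 (-0.54, SE 0.33, limma adjusted p = 0.353), and its libraries overlapped widely. It rested on single libraries: without IgHMOG iGBGFP replicate 2 the Slc16a3 estimate was -0.16, and without WT iGB6 replicate 3 it was -0.22.

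Ldha held 91.5 ± 2.68% of the level per kb of Ldha and Ldhb in IgHMOG iGBGFP against 92.7 ± 3.11% in WT iGB6 (n = 3 per group, exact permutation p = 0.5). Ldhb itself was at 201 ± 27.6 and 243 ± 119.9 normalized counts (0.18, SE 0.25), with 0.86 between the females and -0.16 between the males. Slc16a1, the transporter MCT1, was at 2 to 15 reads per library and Pdk1, a kinase that inhibits pyruvate dehydrogenase, at 3 to 15, both below the mean set for the test. The authors' deposited table gave Pdk1 a log2 fold change of -0.42 with an adjusted p-value of 0.680.

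In the pentose phosphate pathway the tested genes had the highest median of any branch with more than 1 tested gene, 0.55, yet none of the 5 passed limma. The branch's summed share of a library was nearly level between the groups, as given above. That sum is weighted by counts, and Taldo1, with the most counts of the branch, was its only tested gene with a negative estimate. Tkt, transketolase, which links the pathway back to glycolysis, was at 7675, 4770 and 4246 normalized counts in IgHMOG iGBGFP against 10135, 7071 and 9574 in WT iGB6. IgHMOG iGBGFP replicate 1 lay above WT iGB6 replicate 2, and the log2 fold change was 0.71 (SE 0.20), with an adjusted p of 0.0649 by limma and 0.0203 by DESeq2. Rpe, ribulose phosphate epimerase, was at 629, 398 and 499 and at 773, 694 and 1256, without overlap, and WT iGB6 replicate 3 stood well above the other libraries (0.81, SE 0.25, adjusted p = 0.0853 by limma and 0.0357 by DESeq2). Its exons overlap those of Kansl1l by up to 558 bases, and without strand the reads of the 2 genes cannot be told apart there.

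G6pdx, glucose 6-phosphate dehydrogenase, which opens the oxidative arm, was at 6712, 3498 and 3993 normalized counts in IgHMOG iGBGFP against 6719, 5736 and 7703 in WT iGB6. The females were level, with a log2 difference of 0.00, and the males differed by 0.83 (overall 0.55, SE 0.22, limma adjusted p = 0.163). Pgd, the next NADPH-yielding enzyme, was at 5020 ± 1206 and 5500 ± 524 (0.16, SE 0.19). Taldo1, transaldolase, was the most abundant member per kb and pointed the other way, with 14070, 15268 and 10538 against 11658, 11301 and 9857 (-0.27, SE 0.21, limma adjusted p = 0.476), and the groups overlapped. Transaldolase and transketolase serve the same non-oxidative arm and had estimates of opposite sign. Pgls and Rpia were at 6 to 10 and 2 to 8 reads per library, below the mean set for the test. The authors' deposited table gave Pgls 0.24, which may be shrunken, with an adjusted p-value of 0.840.

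Of the 5 glycogen genes, 2 rose, or 40.0% against 2.75% of all genes tested. The other 3 were positive without passing, and the median of the 5 was 0.44. Pgm1, the gene of phosphoglucomutase on GRCm38 chromosome 4 (ENSMUSG00000025791, 99929414 to 99987294), whose enzyme interconverts glucose 1-phosphate and glucose 6-phosphate, was at 355, 242 and 225 normalized counts in IgHMOG iGBGFP against 528, 401 and 409 in WT iGB6. The groups did not overlap, with means of 274 ± 70.6 and 446 ± 70.8 (SD over 3 mice per group; log2 fold change 0.72, SE 0.17, limma adjusted p = 0.0384). The difference was 0.57 between the females and 0.79 between the males, and 12 of 20 alternative fits called it. An exon of Itgb3bp lies across its start on the other strand, with a mean of 14.7 normalized counts for that gene. Pgm2, the phosphoglucomutase gene on chromosome 5, was at 427 ± 27.6 and 472 ± 55.1 (0.14, SE 0.17).

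Gys1, the glycogen synthase of muscle and most other tissues (ENSMUSG00000003865, GRCm38 chromosome 7, 45434844 to 45456619), was at 733, 306 and 287 normalized counts in IgHMOG iGBGFP against 899, 659 and 692 in WT iGB6. The groups overlapped, because the female IgHMOG iGBGFP library lay above the males of WT iGB6. The means were 442 ± 252 and 749.9 ± 130.0 (SD over 3 mice per group; log2 fold change 0.89, SE 0.21, limma adjusted p = 0.0378), and 16 of 20 alternative fits called it. The difference was 0.29 between the females and 1.19 between the males. Gys1 shares up to 290 bases of exon with Ruvbl2 on the other strand, so its count is uncertain without strand. Ruvbl2 was at 215 ± 23.8 and 337 ± 34.3 (0.65, SE 0.19, limma adjusted p = 0.0659), and its part in the Gys1 value was not tested.

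Pygl, the glycogen phosphorylase that releases glucose 1-phosphate, was the most abundant glycogen gene per kb, at 9451, 5905 and 5750 normalized counts in IgHMOG iGBGFP against 9147, 7482 and 9074 in WT iGB6. IgHMOG iGBGFP replicate 1 was the highest of all 6 libraries (0.32, SE 0.20). Gbe1, the branching enzyme, was at 129 ± 43.8 and 178 ± 64.6 (0.44, SE 0.29). Hif1a was at 104, 209 and 113 in IgHMOG iGBGFP against 87.7, 149 and 81.0 in WT iGB6 (-0.40, SE 0.30, limma adjusted p = 0.447). Replicate 2 was the highest for Hif1a in each group, and the groups overlapped.

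The order of levels was set by the gene far more than by the group. Per kb of exon and over all 6 libraries, Taldo1 was highest at 5581 normalized counts, followed by Pkm at 5362, Aldoa at 2784, Eno1 at 2409, G6pdx at 1859 and Ldha at 1695. Taldo1 and Pkm did not differ beyond their spread, at 4540 to 7033 and 3881 to 6638 over the libraries, nor did Aldoa and Eno1, at 1944 to 3353 and 1824 to 2861. The limma-called members were in the middle and lower part, with Pgam1 at 205, Gys1 at 124 and Pgm1 at 123. At the bottom, Pfkm and Aldoc were at 3.62 and 3.54 and Rpia at 0.833. Rpia has 18 close copies in the annotation, whose counts came to 16834% of its own, so its level is uncertain.

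**Figure D5:**
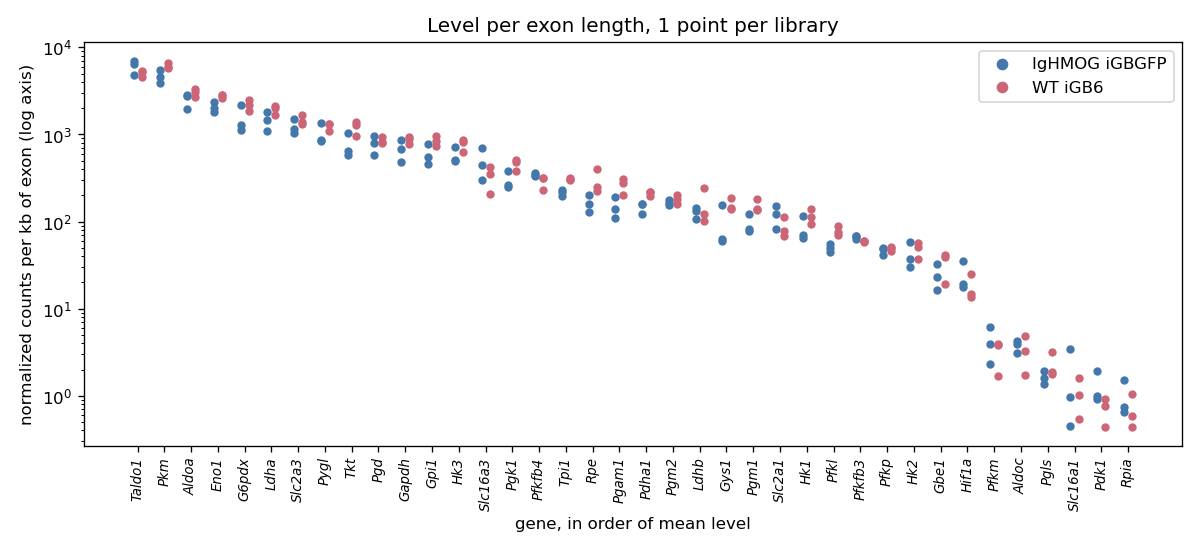
Normalized counts per kb of exon for the 38 members in order of their mean over 6 libraries, 1 point per library on a log axis, with IgHMOG iGBGFP in blue and WT iGB6 in red. Many neighbouring genes overlap, and the whole order runs from 5581 for Taldo1 to 0.833 for Rpia, whose level is uncertain because of close copies.

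Among 66 further genes of the same pathways, 44 were tested, 1 rose, 1 fell and 42 did not pass, with a median of 0.25 and 27 of 44 positive, or 61.4% against 51.6% of all genes. The shares called, 2.27% in each direction, were below the 2.75% higher and 3.37% lower of all genes tested. Both that passed act on glycogen. Phkb, a regulatory subunit of the kinase that activates glycogen phosphorylase, was at 191, 108 and 157 normalized counts in IgHMOG iGBGFP against 343, 264 and 324 in WT iGB6, without overlap (1.05, SE 0.21, limma adjusted p = 0.0254). Ppp1r3d, a subunit that targets protein phosphatase to glycogen, was at 72.6, 152 and 77.0 against 35.6, 44.2 and 20.2, also without overlap (-1.55, SE 0.38, limma adjusted p = 0.041). Among 25 genes of oxygen sensing and of hypoxia-inducible factor targets outside glucose use, 18 were tested, 0 rose and 1 fell, with a median of -0.24 and 5 of 18 positive. That is 5.56% called lower, against 3.37% of all genes, and 27.8% positive, against 51.6%. The 1 that fell was Bnip3, a mitophagy receptor, at 110.5, 158 and 203 against 60.5, 78.9 and 83.2, without overlap (-1.04, SE 0.22, limma adjusted p = 0.0278). By DESeq2, which called 6 members of the main list, Slc2a6, Emb and Slc7a11 were also lower and Ero1l higher, and these 4 are named after their values were seen.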

How the data were processed

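The 6 bulk libraries of CD11b+ cells, each from 1 mouse, were grouped by the labels, which also give each mouse's sex and replicate number. The members and gene lists were chosen with earlier results of these data known. Per the submitters' processing notes, cutadapt 4.4, STAR 2.7.10b, featureCounts 2.0.3 and DESeq2 2.11.40.7 were used with GRCm38 and mm10. No source used here gives the strand setting or how reads with several matches were counted. Per the labels' protocols, a low-input kit with amplified cDNA was used and no molecular identifiers are described, so duplicated molecules are counted as reads.

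The deposited signal values are normalized counts, with 1 row per Ensembl gene and 1 column per library. Divided by its smallest step, each column gave whole reads for 100% of values (tolerance 0.001), so that the authors had divided read counts by 1 factor per library. For IgHMOG iGBGFP replicate 3, whose factor is close to 1 (0.9996 normalized counts per read), a separate automatic check of units could not accept this step, and the whole reads of that library rest on the calculation here alone. The count tests on recovered reads are therefore alternatives, and they use all 6 libraries. The authors' second deposited table, which has no header, gives a log2 fold change with its standard error, a test score, and p-values before and after adjustment, and the order of its columns was read from the values. Its fold changes may be shrunken, that is, pulled in towards no change. For low genes they may therefore not be comparable with the limma estimates.

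Symbols and exon lengths came from GENCODE M21 (GRCm38), matched for 42548 of the 43432 genes. Limma 3.58.1 in R 4.3.3, with a variance trend, was fitted two-sided, with terms for group and sex, to log2(normalized count + 1). It covered the 9923 genes whose mean reached 10, and calls were made at a Benjamini-Hochberg adjusted p under 0.05. Fold changes on this scale understate those of low genes. EdgeR 4.0.16 (quasi-likelihood) and DESeq2 1.42.0 were fitted to the recovered reads. Sex and replicate number 1 coincide. Isozyme shares were compared by two-sided exact permutation over libraries. Close copies were transcripts of other genes matching at 95% identity or more over at least 200 bases. Each member past a threshold in limma, edgeR or DESeq2, the 2 smallest p-values of each branch and its most abundant gene were to be given library by library, other members by value or range, and genes of other lists where limma called them. Alternatives were pseudocounts of 0.5 and 5, no filter or a mean of at least 50, other scalings, no sex term, a replicate block, the males alone, library weights, and each library left out in turn. The fits were tested on simulated data.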

Additional observations from a re-analysis of the deposited data

How the results depend on the processing

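Limma called 3 members higher and 607 genes in all. Both counts moved by over 1.5 times with no filter on low values (5 members, 1079 genes), DESeq2 (6, 951), no sex term (0, 10), the males alone (1, 133) and library weights (9, 1443). With total-count scaling, chosen after the data were seen, the members called fell to 0, and in the authors' deposited table they were 6. Leaving out each library in turn gave 0 to 4 members and 4 to 1090 genes, with 0 members without IgHMOG iGBGFP replicate 2 or 3. The count of members called lower was 0 in all of these fits, and that of sex by group interactions was 0 wherever it was computed. No member that limma called changed direction in any alternative. Of 677 alternative values for single members, 629 kept direction and side of the threshold, 19 lost a call, 18 gained one and 11 changed sign. The sign changes were small: with total-count scaling Pfkp was at -0.13, Ldhb at -0.03, Pgd at -0.05 and Pgm2 at -0.07, with library weights Aldoc was at 0.05, and in the males alone Ldhb was at -0.16. Over the fits that left out 1 library, Pfkp ran from -0.00 to 0.14, Aldoc from -0.62 to 0.15, Ldhb from -0.16 to 0.39 and Pgd from -0.00 to 0.27. No isozyme share could pass the threshold with 3 libraries per group under any setting. The causes were not tested, and fits without a library or with males alone have fewer samples. With the replicate number as a block, limma called 5 members and 1001 genes. Deviations of same-numbered libraries correlated at 0.48, 0.35 and 0.04 for numbers 1, 2 and 3, and IgHMOG iGBGFP replicate 3 correlated best with WT iGB6 replicate 2 (0.29). In the labels, mice of the same replicate number also have close mouse numbers. With 3 libraries per group these values cannot decide whether the numbers pair the mice, and the main fit assumed no pairing. The 4 members below the filter had at most 15 reads in any library, and the fit with no filter called none of them.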
